A study of Mus musculus with 24 samples.

Results

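T and B lymphocyte genes were followed here as a module of 39 genes in mouse pancreatic islets, taken as every array probe whose gene name in the scanner files is a member. All 39 names had a probe (51 probes in all), out of 34779 gene names on the array. By role, 16 members belong to T cells, 8 to B cells, 4 to cytotoxic cells, 6 to lymphocyte homing and cytokine signalling, and 5 to leukocytes in general. The islets came from 24 male mice, 1 array per mouse, in 6 groups of 4: BLKS (C57BLKs/J) mice on a high-fat diet with pioglitazone (HFD+Pio), on the high-fat diet alone (HFD) or on chow, and BL6 (C57BL6/J) mice on HFD+Pio, HFD or chow. Mice were 8 weeks old at the start. The high-fat diet held 42% of its kcal as fat and chow held 18%, and pioglitazone, a drug that activates PPAR-gamma, was given at 140 mg per kg of diet. The sample labels give 12 weeks of feeding and the series design text gives 16. The series asks how the strains differ in their answer to the high-fat diet, and the comparisons below are HFD against chow and HFD+Pio against HFD in each strain, BLKS against BL6 on each diet, and the strain difference in each response.

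T cells recognise antigen through a receptor that signals through the CD3 chains, the kinases Lck and Zap70 and the adaptor Lat, and they carry CD4 or CD8 as co-receptor. B cells signal through the CD79 chains beside their surface antibody, and Ms4a1 (CD20), Cd22 and Cr2 lie on their surface. Naive lymphocytes enter lymphoid tissue under the chemokine receptors Ccr7 and Cxcr5, and lymphotoxins (Lta, Ltb) made by lymphocytes shape that tissue. A healthy islet holds few lymphocytes, while the islet infiltrates of autoimmune diabetes and the lymph nodes beside the pancreas hold many.

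The array read each gene through probes of 60 bases. Probe stretches are shown first for Cd4, Nkg7 and Cd79a, whose probe pairs read different levels or ranges, and for Cd3e and Lta, each read by 1 probe. Each line gives the last 30 bases of a probe, 5′ to 3′ in the sense of the transcript, with polyadenylation signals (AATAAA or ATTAAA, searched on the probe's own strand) in capitals.
Cd3e: taatgcaaaaggcAATAAAgtgtattggct
Cd4, analysed probe: acagaaaAATAAAggctataAATAAAatgc
Cd4, other probe: gcagtgtctactgagtgaaggtgataaggt
Nkg7, analysed probe: ccaccttgccttatccttcattggtttctt
Nkg7, other probe: ccagtatgagatggagccagactccatttt
Cd79a, analysed probe: gtgatAATAAAtccttcccaaagcaaaaaa
Cd79a, other probe: gtacttacctccgcgtgcgcaatccagtcc
Lta: actaggtcccagacacaaaggtgtctcacc
Positions are those of the files, on mm9. The Cd3e probe lies at chr9:44806828-44806887 on the minus strand, next to the probes of Cd3d (chr9:44794171-44794402) and Cd3g (chr9:44777868-44777927). The analysed Cd4 probe lies at chr6:124814711-124814770 and the other Cd4 probe at chr6:124817706-124817765, both on the minus strand. The Nkg7 probes lie at chr7:50693530-50693589 and chr7:50693148-50693207, both on the plus strand. For Cd79a the analysed probe lies at chr7:25686823-25686882 and the other one spans chr7:25684357-25684614, both on the plus strand. The Lta probe lies at chr17:35340275-35340334 on the minus strand. An mm9 gene annotation was not used here, so exon and UTR positions are not given. Such a signal stood in 14 of the 51 member probes (27.5%) and in 13.7% of all 55626 probes. A match is a description of the probe and says nothing of which transcript end was made.

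Levels are log2 processed intensities with the 75th percentile of the array set to 0. The intensity at that percentile ranged from 217.6 to 402.4 between arrays, and from 50.2% to 59.3% of the spots of an array were well above background. The array number, 4 per group, limits the precision. A list of 12 islet genes, with the insulin gene Ins1 and the glucagon gene Gcg among them, was well above background on all 24 arrays. The strain labels were checked on Nnt, a mitochondrial enzyme gene deleted in part in BL6 mice of the J substrain: its analysed probe lay between 3.48 and 3.97 on the 12 BLKS arrays, against between 2.05 and 2.71 on the 12 BL6 arrays.

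The module was not spread evenly over the mice, and 8 of the 24 arrays stood apart. On these the mean of the 35 members that passed the filter on dim probes lay more than 1 (log2) above the median of the arrays. They were BLKS HFD+Pio mouse 1 (2.54 above the median), BLKS HFD mouse 3 (3.72), BLKS chow mice 2 (2.01) and 4 (1.32), BL6 HFD+Pio mice 2 (2.02) and 3 (4.77), BL6 HFD mouse 4 (3.58) and BL6 chow mouse 3 (1.66). Every group therefore held 1 or 2 of them, and none of the other 16 arrays lay more than 0.54 above the median. For 30 of the 35 members the highest value was on BL6 HFD+Pio mouse 3. For Foxp3, Blk, Cr2 and Ccr7 it was on BLKS HFD mouse 3, and for Gzma on BL6 HFD+Pio mouse 2. Members seen on few arrays could pass the filter through the arrays where they were high. These counts are therefore a description, and the share over all genes is not given. In such bulk samples, fewer cells of a type and less RNA per cell cannot be told apart.

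**Figure D1:**
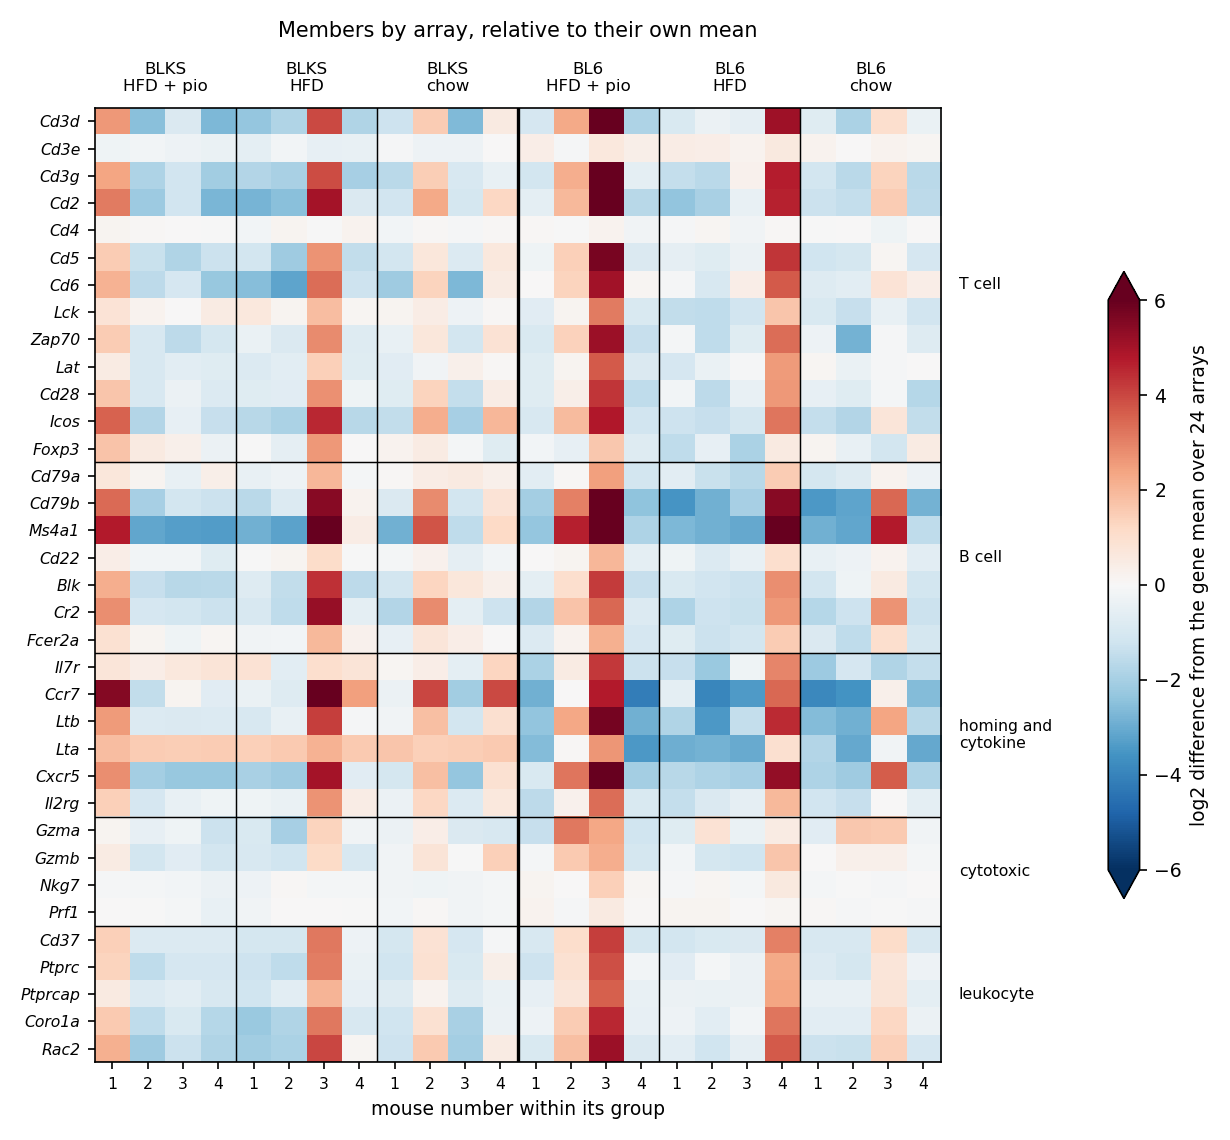
Each row is 1 of the 35 members past the filter and each column 1 array, named by its mouse number within the group. Colour gives the log2 level minus the gene's own mean over the 24 arrays, and colours saturate at 6. The 8 arrays that stood apart show as warm columns, with 1 or 2 in every group, while the rows of Cd3e, Cd4, Nkg7 and Prf1 stay pale and Lta is warm on all BLKS arrays.

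Probes entered the tests if at least 4 arrays read them well above background, and 35 members had such a probe. Cd8a, Cd8b1, Ctla4 and Pax5 did not pass. Because members that are seen on few arrays could pass through the arrays where they were high, the counts that follow describe the 35 and support no statement on the module. Of the 35, 15 were well above background on all 24 arrays. The standard deviation (SD) within groups had a median of 1.63 over the 35 members, against 0.21 over all 22968 genes, and it lay above the 95th percentile of all genes for 30 of them. Deviations from the group means correlated over the 24 arrays with those of the other members at r above 0.9 for 26 of the 35. The arrays share their scaling and the members share the arrays, so these correlations are given as a description only.

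Among T-cell members, the CD3 chain genes Cd3d and Cd3g and the adhesion receptor Cd2 covered the widest ranges. Cd2, which binds CD48 on neighbouring cells in the mouse, read 0.66, -4.63, -3.59 and -5.18 in BLKS HFD+Pio mice 1 to 4. In BLKS HFD mice it read -5.23, -4.95, 2.52 and -3.35, and in BLKS chow mice -3.61, -0.17, -3.51 and -1.24. In BL6 HFD+Pio mice it read -3.03, -0.50, 3.54 and -4.12. The same gene stood at -4.83, -4.42, -2.90 and 2.14 in BL6 HFD mice and at -3.77, -3.89, -0.94 and -4.01 in BL6 chow mice. Every group overlapped every other, and in each the high values belonged to the arrays that stood apart. A second Cd2 probe followed the members as closely (r = 0.99) as the analysed one (r = 0.98). Cd3d ranged over 9.39 and Cd3g over 8.57 on the log2 scale. Cd5 and Cd6, which lie near each other on chromosome 19 and encode receptors that temper T-cell signalling, ranged over 7.83 and 8.23. The kinase gene Lck ranged over 4.64, Zap70 over 7.98, the adaptor gene Lat over 4.66, and the co-stimulatory receptor genes Cd28 and Icos over 5.97 and 6.78.

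Cd3e and Cd4 did not follow the other T-cell members. Cd3e encodes the epsilon chain of CD3, needed for every T-cell receptor at the surface, and had a single probe. It lay between 2.12 and 2.69 on BLKS arrays and between 2.63 and 3.29 on BL6 arrays, and its correlation with the other members was 0.23. The neighbouring Cd3d lay between -6.91 and 2.48 on the same arrays. The analysed Cd4 probe, whose printed end holds the polyadenylation signal 2 times, stayed between 2.04 and 2.51 on all 24 arrays (r = 0.36). The other Cd4 probe was well above background on 3 arrays, lay between -6.03 and -3.27 and was highest on BL6 HFD+Pio mouse 3 (r = 0.78). What the flat probes of Cd3e and Cd4 measured was not tested.

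The dim T-cell members had their highest values on different arrays. The CD8 chain genes Cd8a and Cd8b1 mark cytotoxic T cells. Cd8b1 read -1.21 on BL6 HFD+Pio mouse 3 and -2.60 on BL6 HFD mouse 4, and between -6.91 and -4.71 on the other 22 arrays. Both Cd8a probes were also highest on those arrays, at -3.09 and -2.03 on BL6 HFD+Pio mouse 3 and at -3.81 and -3.37 on BL6 HFD mouse 4. Foxp3, the transcription factor of regulatory T cells, was highest on BLKS HFD mouse 3 (-2.07), with BLKS HFD+Pio mouse 1 at -2.96 and BL6 HFD+Pio mouse 3 at -3.06. Ctla4, an inhibitory receptor abundant on regulatory T cells, stood at -2.31 on BLKS HFD mouse 3, against -3.78 on BL6 HFD+Pio mouse 3 and -4.86 on BL6 HFD mouse 4. BLKS HFD mouse 3 thus had the highest Foxp3 and Ctla4 values, with Cd8b1 at -4.79 and the Cd8a probes at -4.56 and -6.36. Foxp3 was well above background on 5 arrays, Cd8b1 and Ctla4 on 2 each, so most of their values lie at background and have no order.

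B-cell members were high on the same arrays. Ms4a1 (CD20) covered the widest range of the 35 members, 11.16 on the log2 scale. It read 1.30, -6.59, -6.78 and -6.84 in BLKS HFD+Pio mice, -6.36, -6.66, 3.20 and -3.04 in BLKS HFD mice, and -6.33, 0.31, -5.01 and -2.25 in BLKS chow mice. In BL6 it read -5.79, 1.19, 4.32 and -5.31 with HFD+Pio, -6.16, -6.36, -6.52 and 3.09 with HFD, and -6.36, -6.61, 1.28 and -4.99 with chow. It was well above background on 9 arrays, and the others are at background. Cd79b, a signalling chain of the B-cell receptor, ranged over 9.96. Cr2, the complement receptor of B cells and follicular dendritic cells, was measured on all 24 arrays and ranged from -3.23 to 3.87, with its highest value on BLKS HFD mouse 3. Cd22, an inhibitory receptor, and Fcer2a, the low-affinity IgE receptor, had the narrower ranges 2.84 and 3.66. The Src-family kinase gene Blk was well above background on 6 arrays, and the B-cell transcription factor gene Pax5 on at most 2.

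Cd79a, the partner of Cd79b, was read by a pair of probes that moved together at different heights. The analysed probe lay between -1.32 and 2.78 and was well above background on all 24 arrays (r = 0.90). The other lay between -6.91 and -1.09 and was well above background on 7 arrays (r = 0.91). The pairs of Cr2 (r = 0.92 and 0.88) and Cd37 likewise moved together. The Cd4 probes spanned 0.47 and 2.75, and the Nkg7 probes 1.75 and 7.79.

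**Figure D2:**
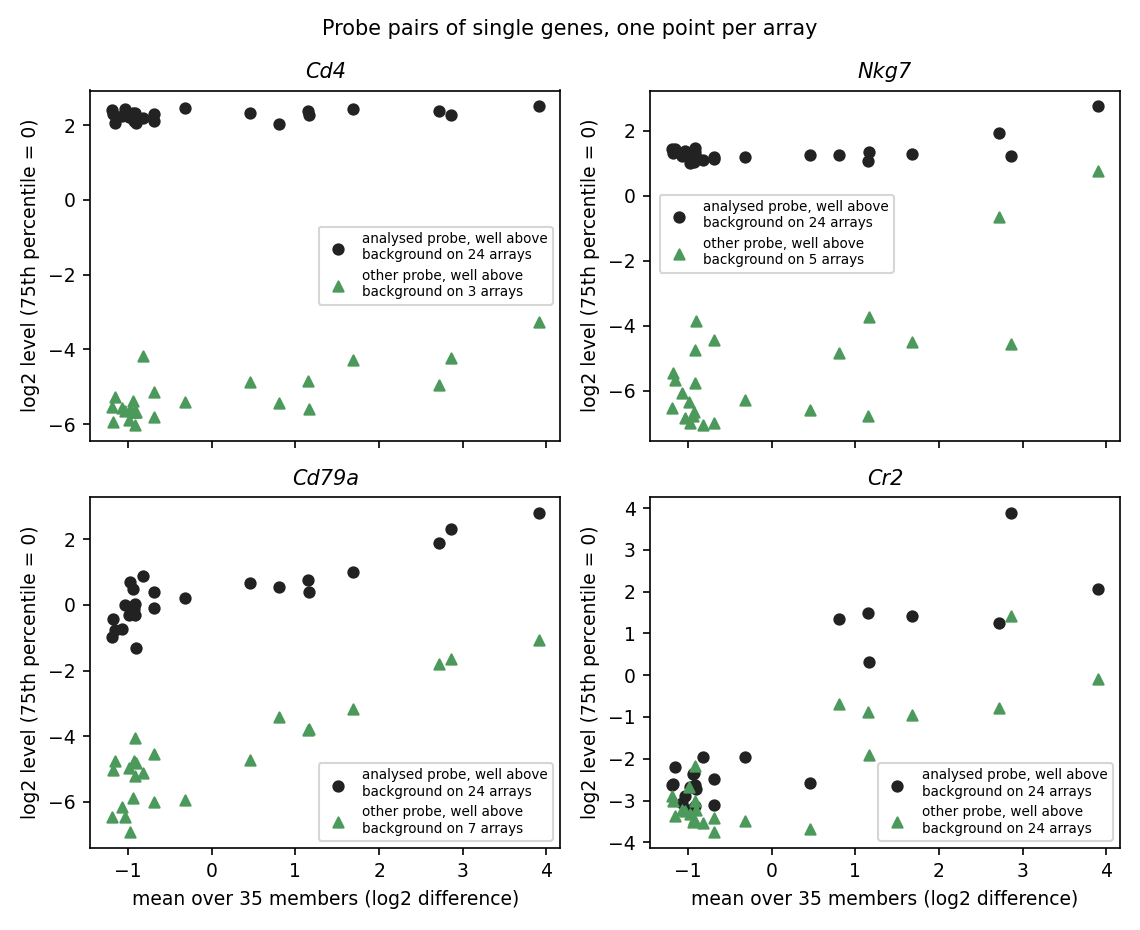
For Cd4, Nkg7, Cd79a and Cr2, the log2 level of the analysed probe (black circles) and of the other probe (green triangles) is plotted against the mean of the 35 members on the same array, 1 point per array. Both probes of Cd79a and Cr2 climb with the members' mean, while the analysed Cd4 probe stays between 2.04 and 2.51 throughout.

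The T-cell mean of an array is the mean over the 13 T-cell members past the filter of each gene's difference from its own mean over the 24 arrays, and the B-cell mean is the same over 7 genes. The T-cell mean was 1.64, -1.03, -0.69 and -1.18 in BLKS HFD+Pio mice, -1.09, -1.24, 2.65 and -0.84 in BLKS HFD mice, and -0.80, 0.92, -1.02 and 0.40 in BLKS chow mice. In BL6 mice it was -0.51, 0.98, 4.11 and -0.87 with HFD+Pio, -0.80, -0.92, -0.47 and 2.85 with HFD, and -0.60, -1.09, 0.29 and -0.66 with chow. Each group held values below 0 beside 1 or 2 above 0. The B-cell mean was 2.15, -1.04, -1.15 and -1.12 in BLKS HFD+Pio mice, -0.99, -1.05, 3.83 and -0.19 in BLKS HFD mice, and -1.01, 1.74, -0.31 and 0.18 in BLKS chow mice. In BL6 mice it was -1.17, 1.55, 4.06 and -1.31 with HFD+Pio, -1.52, -1.66, -1.55 and 3.08 with HFD, and -1.65, -1.48, 1.85 and -1.25 with chow. The same mice were high in both.

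**Figure D3:**
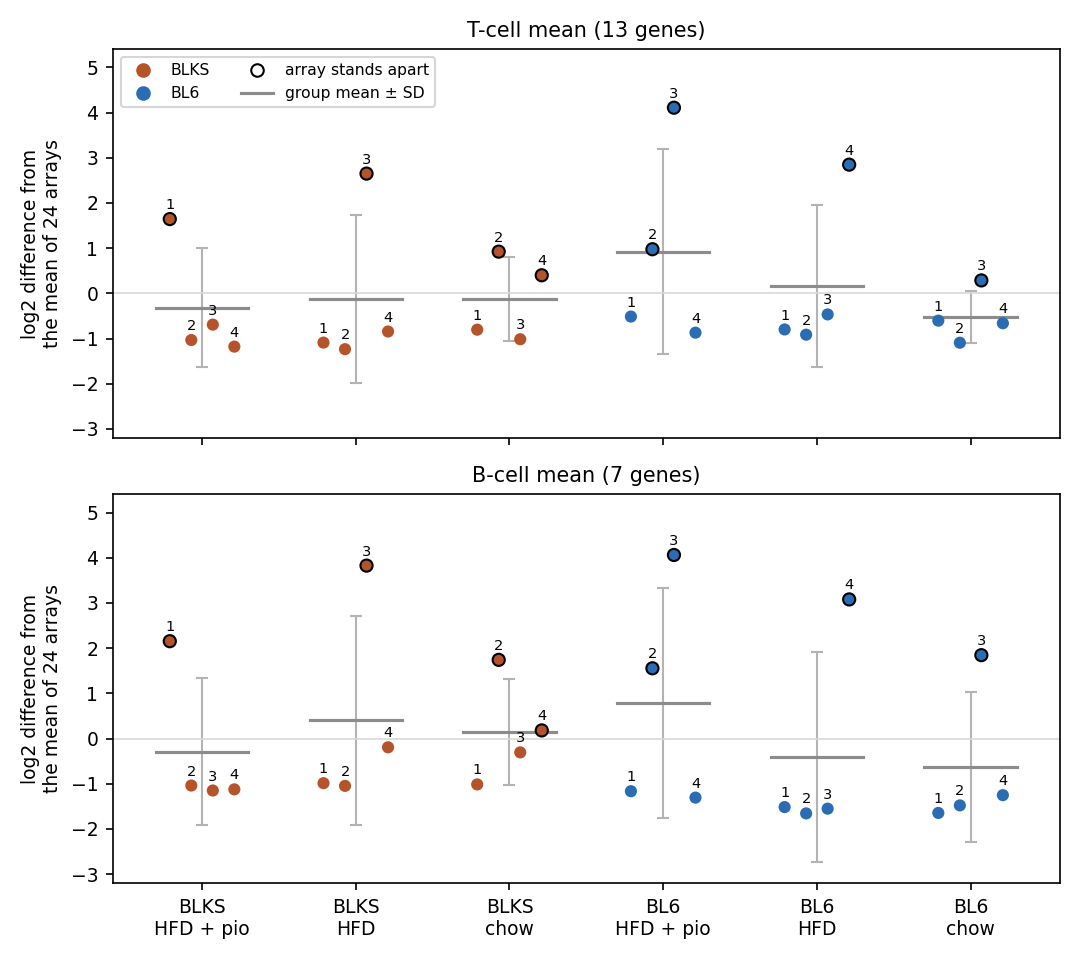
The T-cell mean (top) and B-cell mean (bottom) of each array, by group, with mouse numbers beside the points, black rims on the 8 arrays that stood apart, and grey bars for the group mean ± SD (n = 4). In every group the SD bar is set by 1 or 2 high arrays, and the groups overlap in both panels.

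Over the 24 arrays the T-cell and B-cell means correlated (Pearson r = 0.94, Spearman rho = 0.58, and r = 0.92 without the 2 arrays farthest from the median). Within BLKS r was 0.97 and within BL6 it was 0.95 (12 arrays each). On the 8 arrays that stood apart r was 0.90 (rho = 0.81). On the 16 other arrays r was -0.30 (rho = -0.40), so the positive correlation was not seen among those. The arrays were split by the members' own values, which narrows the range in each part, and many values on the 16 lie at background. Both means of an array share its RNA and its scaling, and no test was made.

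The balance of T-cell to B-cell genes differed from array to array. BL6 HFD+Pio mouse 2 was higher than BL6 chow mouse 3 in 11 of the 12 T-cell genes measured on both (median difference 0.60), and lower in all 6 B-cell genes (median difference -0.29). BL6 HFD mouse 4 was higher than BL6 chow mouse 3 by a median of 2.80 over 12 T-cell genes and of 1.08 over 6 B-cell genes. BL6 HFD+Pio mouse 3 exceeded BL6 HFD mouse 4 in all 12 T-cell genes (median 1.44) and all 7 B-cell genes (median 0.94). Even within a group the balance shifted: BLKS chow mouse 2 was higher than BLKS chow mouse 4 by 1.37 in the median of 6 B-cell genes and by 0.17 in that of 11 T-cell genes. Each such difference compares 2 mice and has no replicate check.

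BLKS HFD mouse 3 and BL6 HFD mouse 4 were set side by side as the HFD mice of the 2 strains that stood apart. Ms4a1 read 3.20 in BLKS HFD mouse 3 and 3.09 in BL6 HFD mouse 4, Cd79b 4.25 and 4.27, and the leukocyte gene Coro1a 3.93 and 3.98. Other members differed severalfold between this pair. Ccr7, the receptor that leads lymphocytes into lymph nodes, was 6.63-fold higher in BLKS HFD mouse 3 (3.61, against 0.88 in BL6 HFD mouse 4), and Cr2 was 6.21-fold higher (3.87, against 1.24). Blk was 1.57 higher and Icos 1.32 higher on the log2 scale. Il7r, the interleukin-7 receptor of naive and memory T cells, was 1.89 lower (-3.14, against -1.25), and Cd5 was 1.58 lower. In the median, BLKS HFD mouse 3 was lower by 0.44 over 12 T-cell genes and higher by 0.44 over 7 B-cell genes. The pair and these genes were picked after their values were seen.

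**Figure D4:**
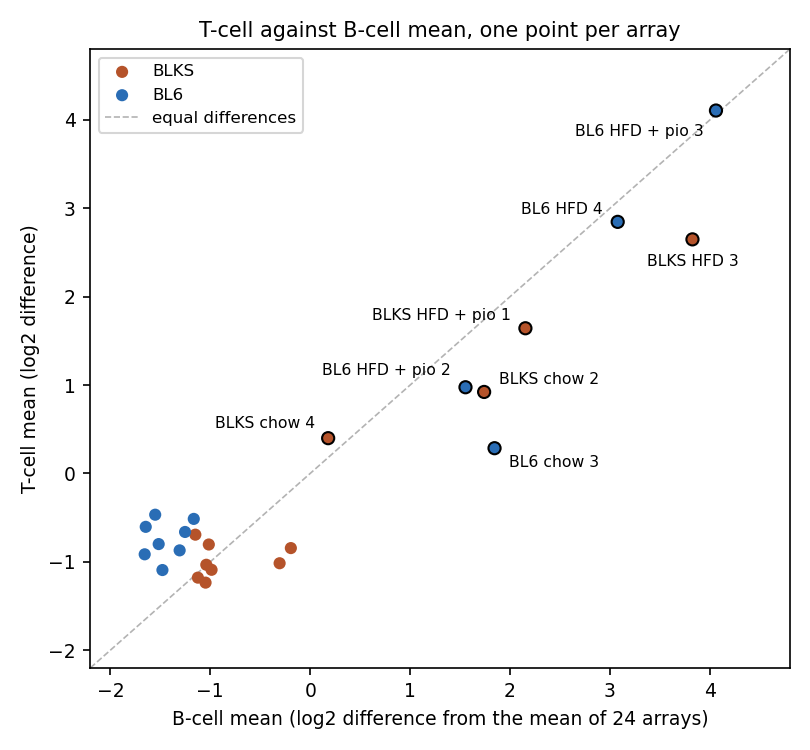
The T-cell mean is plotted against the B-cell mean, both as log2 differences from the mean of 24 arrays, 1 point per array, with the arrays that stood apart named and rimmed in black. BLKS HFD mouse 3 (T-cell mean 2.65, B-cell mean 3.83) and BL6 chow mouse 3 (0.29 and 1.85) lie farthest below the dashed line of equal differences.

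Of the homing and cytokine members, Ccr7 ranged over 10.33 on the log2 scale, Cxcr5, the receptor that leads B cells into follicles, over 8.74, and Ltb over 9.15. Il2rg, the chain shared by several interleukin receptors, ranged over 4.90 and was measured on all arrays. Il7r was well above background on 10 of 12 BLKS arrays, where it lay between -4.83 and -2.90, and on 3 of 12 BL6 arrays, where it lay between -6.41 and 0.08. Its strain differences did not pass on any diet (limma adjusted p = 0.157 on chow). Lta read -1.36, -1.68, -1.73 and -1.70 in BLKS HFD+Pio mice, -1.80, -1.63, -1.13 and -1.63 in BLKS HFD mice, and -1.55, -1.79, -1.73 and -1.65 in BLKS chow mice. In BL6 it read -5.81, -3.15, -0.59 and -6.66 with HFD+Pio, -6.16, -6.04, -6.24 and -2.26 with HFD, and -4.98, -6.28, -3.41 and -6.27 with chow. It was well above background on all 12 BLKS arrays, whose values lay between -1.80 and -1.13, and on 4 of the 12 BL6 arrays. Of the BL6 arrays, only HFD+Pio mouse 3 lay above any BLKS array, and it lay above all 12.

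Cytotoxic members had the lowest median correlation with the other members of the 5 roles (0.66). Gzma, a granzyme gene of cytotoxic T and NK cells, was highest on BL6 HFD+Pio mouse 2 (0.45), with BL6 HFD+Pio mouse 3 at -0.39, BL6 chow mice 2 and 3 at -1.08 and -1.12, and BLKS HFD mouse 3 at -1.35. BL6 chow mouse 2 did not stand apart, and its T-cell mean was -1.09. Gzmb was well above background on 5 arrays, the highest being BL6 HFD+Pio mouse 3 at -3.25. Prf1, which encodes perforin, lay between -0.68 and 0.28 on all 24 arrays. The analysed Nkg7 probe, for a granule membrane protein, lay between 0.99 and 2.74 (r = 0.65), and its other probe, well above background on 5 arrays, ranged over 7.79 (r = 0.82). Of 6 NK-cell genes (Ncr1, Klrb1c, Klrd1, Klrk1, Klre1 and Eomes) none passed the filter, each being well above background on at most 3 arrays.

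Leukocyte members had the highest median correlation of the 5 roles (0.98). Ptprc (CD45, the tyrosine phosphatase of all white blood cells) had r = 0.97, its partner Ptprcap r = 0.98, the actin regulators Coro1a and Rac2 r = 0.98 each, and the tetraspanin gene Cd37 r = 0.995. All 5 were measured on every array. Ptprc lay between -3.96 and 0.65 on BLKS arrays and between -3.66 and 1.46 on BL6 arrays. Rac2, with the largest within-group SD of the 5 (2.22), spanned 7.30.

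No member passed the threshold for the high-fat diet against chow in either strain, an adjusted p of 0.05 in limma over 22968 genes. In BL6, 0 of 35 members passed (1 at an unadjusted p under 0.05), and 0.0435% of all genes did. In BLKS, 0 of 35 passed (0 at an unadjusted p under 0.05), and 0.0784% of all genes did. The member of smallest p was Cd3e in both strains. It read 3.14, 3.09, 2.88 and 3.28 in BL6 HFD mice and 2.88, 2.69, 2.91 and 2.82 in BL6 chow mice, a difference of 0.28 ± 0.12 (SE, limma adjusted p = 0.87). In BLKS it averaged 2.27 ± 0.18 with HFD and 2.51 ± 0.16 with chow, a difference of -0.24 ± 0.12 (limma adjusted p = 0.59). The median log2 difference over the 35 members was 0.49 in BL6, against -0.00 over all genes, and 0.18 in BLKS, against -0.02, while the median SE of a member was 1.10.

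These medians moved with single arrays. The T-cell mean differed by 0.68 between HFD and chow in BL6, with a pooled SD of 1.33, and by -0.21 when BL6 HFD mouse 4 was left out. In BLKS it differed by -0.01 (SD 1.47), and by -0.93 without BLKS HFD mouse 3. Without all 8 arrays that stood apart, it differed by 0.06 in BL6 and by -0.15 in BLKS. The B-cell mean differed by 0.22 in BL6 and 0.25 in BLKS, and by -0.12 and -0.08 without those arrays. Leaving out BL6 HFD mouse 4 gave -0.94 in BL6, and leaving out BLKS HFD mouse 3 gave -0.89 in BLKS. Over all 4 mice of each group, these differences were smaller than the spread between mice.

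No member passed for pioglitazone against the high-fat diet alone either. In BL6, 0 of 35 members passed (0 at an unadjusted p under 0.05), and 0.192% of all genes did. In BLKS, 0 of 35 passed (0 at an unadjusted p under 0.05), and 0.00435% of all genes did. Lck had the smallest p in BL6. It read -0.28, 0.60, 3.56 and -0.49 in BL6 HFD+Pio mice, against -1.06, -1.08, -0.73 and 2.06 in BL6 HFD mice, a difference of 1.05 with a limma adjusted p of 0.64. The 2 groups overlapped, and each held its high values on arrays that stood apart. Cd22 had the smallest p in BLKS, at -0.45, -0.99, -1.03 and -1.55 in BLKS HFD+Pio mice, against -0.87, -0.68, 0.24 and -0.85 in BLKS HFD mice, a difference of -0.47 (limma adjusted p = 1.00). The T-cell mean differed by 0.76 in BL6, against 0.03 without the arrays that stood apart, and by -0.19 in BLKS, against 0.09 without them. For the B-cell mean the differences were 1.20 in BL6 and -0.69 in BLKS, and 0.34 and -0.36 without them. Leaving out BL6 HFD+Pio mouse 3 alone gave a T-cell difference of -0.30 in BL6, and leaving out BLKS HFD mouse 3 gave 0.74 in BLKS. The B-cell difference was 0.11 in BL6 without BL6 HFD+Pio mouse 3 and 0.45 in BLKS without BLKS HFD mouse 3. The BL6 groups of this comparison lay on different slides, as did the BLKS groups of HFD against chow, so slide and treatment cannot be told apart there, while the other pairs shared a slide.

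BLKS against BL6 was the comparison in which members passed. On chow 2 of 35 passed, 1 higher and 1 lower, while 41.6% of all genes did (20.6% higher, 20.9% lower). On HFD 2 passed, 1 higher and 1 lower, against 49.9% of all genes (23.2% higher, 26.7% lower). On HFD+Pio 3 passed, all lower, against 45.8% of all genes (23.0% higher, 22.8% lower). The median SE of a member was 1.10. In each of these comparisons the strains lay on different slides, so slide and strain cannot be told apart. With slide as a random block the counts were again 2, 2 and 3. The correlation fitted for that block was -0.01, so the fit was close to the main one. It cannot separate slide from strain.

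Lta was the member higher in BLKS. On chow it averaged -1.68 ± 0.11 in BLKS and -5.24 ± 1.36 in BL6 (SD, n = 4 each), a difference of 3.56 ± 1.00 (SE, limma adjusted p = 0.0070), and the groups did not overlap. BL6 chow arrays measured it above background in 1 of 4 mice, so the BL6 mean is set by values at background in the other 3. On HFD it averaged -1.55 ± 0.29 in BLKS and -5.17 ± 1.95 in BL6, a difference of 3.62 ± 1.00 (limma adjusted p = 0.0050), again with no overlap and with 1 of 4 BL6 mice above background. On HFD+Pio it averaged -1.62 ± 0.17 in BLKS and -4.05 ± 2.75 in BL6. That difference of 2.43 ± 1.00 did not pass (limma adjusted p = 0.053), and it was 3.59 with an adjusted p of 0.0020 without BL6 HFD+Pio mouse 3. The calls on chow and HFD held with each of the 8 mice left out in turn, with limma adjusted p up to 0.0258 on chow and 0.0187 on HFD.

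Cd3e was lower in BLKS in all 3 comparisons. With HFD it read 2.12, 2.53, 2.19 and 2.26 in BLKS mice, against 3.14, 3.09, 2.88 and 3.28 in BL6 mice, a difference of -0.82 ± 0.12 (SE, limma adjusted p = 1.32e-05). On HFD+Pio it read 2.43, 2.50, 2.38 and 2.28 in BLKS mice, against 3.07, 2.63, 3.29 and 3.04 in BL6 mice, a difference of -0.61 ± 0.12 (limma adjusted p = 0.000374). The groups did not overlap in either. On chow Cd3e read 2.60, 2.39, 2.37 and 2.69 in BLKS mice, against 2.88, 2.69, 2.91 and 2.82 in BL6 mice, a difference of -0.31 ± 0.12 (limma adjusted p = 0.048). The highest BLKS chow value (2.687, mouse 4) lay barely below the lowest BL6 chow value (2.688, mouse 2). The chow call was lost without BLKS chow mouse 1, 2 or 3 or BL6 chow mouse 1, 3 or 4, with adjusted p up to 0.129. It was also lost with no filter (adjusted p = 0.080), the authors' value table (0.062), mouse number as a block (0.063) and without the arrays that stood apart (0.095), while those on HFD and HFD+Pio held with every mouse left out. This probe did not follow the other T-cell members, as given above.

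Nkg7 and Prf1 passed as lower in BLKS on HFD+Pio. The strain difference of neither changed between HFD and HFD+Pio past the threshold, with interactions of -0.34 for Nkg7 (limma adjusted p = 0.846) and -0.13 for Prf1 (limma adjusted p = 0.874). Nkg7 read 1.27, 1.19, 1.18 and 0.99 in BLKS HFD+Pio mice, against 1.47, 1.33, 2.74 and 1.44 in BL6 HFD+Pio mice, a difference of -0.59 ± 0.22 (limma adjusted p = 0.031). Prf1 read -0.25, -0.29, -0.35 and -0.68 in BLKS mice, against -0.07, -0.35, 0.28 and -0.19 in BL6 mice, a difference of -0.31 ± 0.11 (limma adjusted p = 0.026). Prf1 overlapped between the groups, and Nkg7 did not. Neither passed without BL6 HFD+Pio mouse 3 or without BLKS HFD+Pio mouse 4, and Nkg7 also failed without BLKS HFD+Pio mouse 2 or 3. With each of the 8 mice left out in turn, the highest adjusted p was 0.108 for Nkg7 and 0.119 for Prf1. Both calls were also lost with the authors' value table and with only the groups compared (limma adjusted p = 0.163 for Nkg7 and 0.161 for Prf1), that of Nkg7 with the mean of its probes (0.065), and that of Prf1 without the arrays that stood apart (0.053).

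Leaving out single mice also added calls. Without BL6 HFD mouse 4, Lck (2.07, limma adjusted p = 0.0130) passed as higher in BLKS on HFD beside Lta and Cd3e. Foxp3 passed there too, but it was well above background on 1 of 4 BLKS HFD arrays and on 0 of 4 BL6 HFD arrays, so its difference lies at background. Without BL6 HFD+Pio mouse 4, Gzmb passed as lower in BLKS on HFD+Pio, where it was well above background on 0 of 4 BLKS arrays and on 2 of 4 BL6 arrays.

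**Figure D5:**
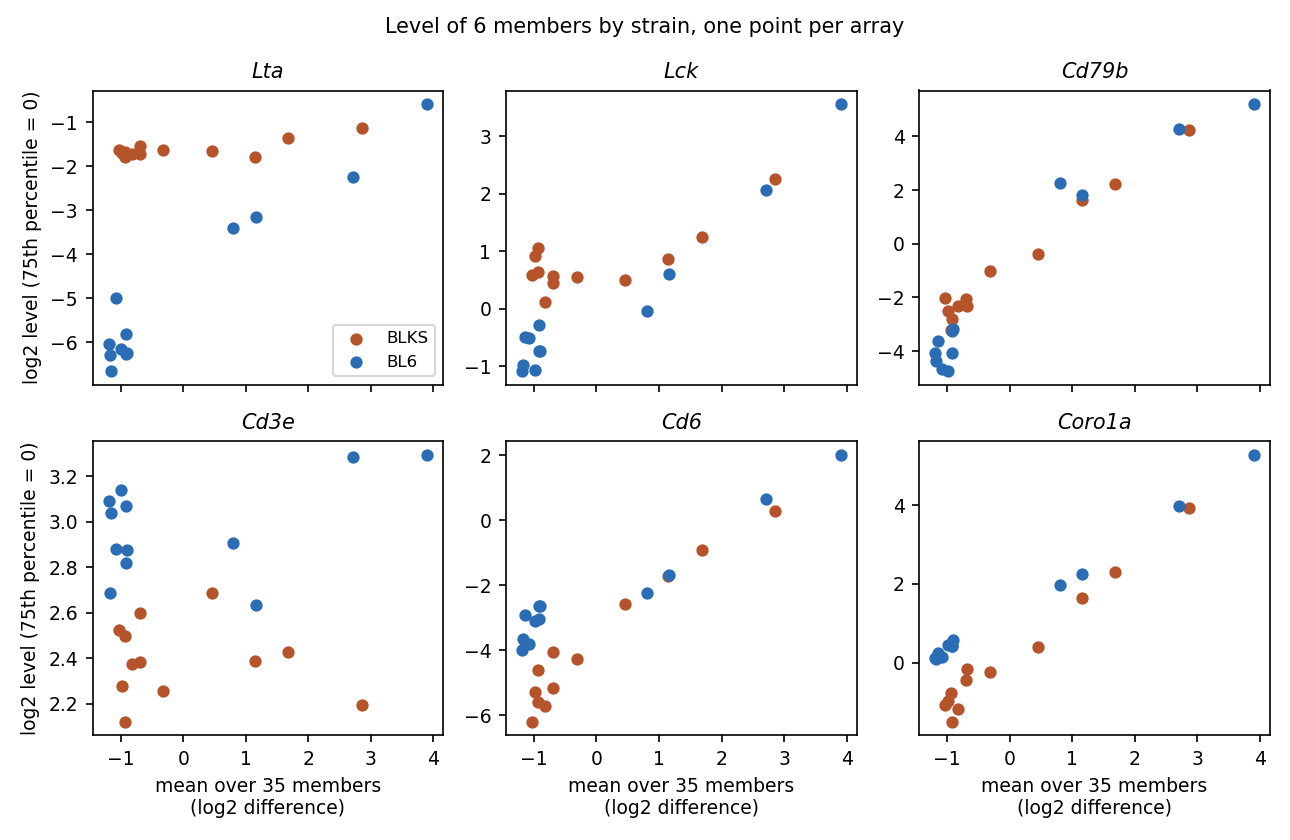
The log2 level of Lta, Lck, Cd79b, Cd3e, Cd6 and Coro1a on each array is plotted against the mean of the 35 members on that array, by strain, 1 point per array. Lta lies between -1.80 and -1.13 on all BLKS arrays, highest on HFD mouse 3 (-1.13) and HFD+Pio mouse 1 (-1.36), which both stood apart. In BL6 Lta climbs with the members' mean, from values at background. Cd3e spans 2.12 to 3.29 over all arrays. Lck, Cd79b, Cd6 and Coro1a climb in both strains, with the strains apart mainly at the low end.

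The remaining 16 arrays gave a further view of the strains. They left 3, 3 and 2 mice with HFD+Pio, HFD and chow in BLKS and 2, 3 and 3 in BL6. The arrays were left out by the members' own values, so a smaller spread of the members follows from that choice. On these arrays 6 members were higher and 2 lower in BLKS on chow, where 33.1% of all genes passed (18.0% higher, 15.1% lower). On HFD 11 were higher and 6 lower, against 46.1% of all genes (21.5% and 24.5%), and on HFD+Pio 7 were higher and 5 lower, against 43.5% (18.8% and 24.8%). In the diet and drug comparisons 0 members passed (3, 3, 1 and 0 at an unadjusted p under 0.05 for HFD against chow in BL6 and BLKS and HFD+Pio against HFD in BL6 and BLKS), and 0 passed in the interactions (2 and 1). Of the 35, 5 were called higher in BLKS on all 3 diets (Lta, Ltb, Lck, Cd79a and Fcer2a) and 2 lower (Cd6 and Coro1a). The share of all genes called on all 3 diets was not counted, so these counts are not set against a background. Lck differed by 1.08 ± 0.21 on chow, 1.69 ± 0.19 on HFD and 1.06 ± 0.21 on HFD+Pio (SE). Ltb differed by 1.75, 1.72 and 1.79, Fcer2a by 1.11, 1.02 and 0.93, and Cd79a by 1.00, 0.91 and 0.90. Cd6 differed by -2.08, -2.11 and -1.68, and Coro1a by -1.03, -1.32 and -0.97. These calls are conditioned on the members' values and are given as a description. With all 24 arrays in the fit, none of these but Lta passed.

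The balance of T-cell to B-cell mean was lower in BLKS on HFD, with no test made and many genes at background. Of the 13 T-cell genes, 5, 5, 13 and 8 were well above background in BLKS HFD mice 1 to 4. In BL6 HFD mice 5, 5, 9 and 12 were. Of the 7 B-cell genes, 5, 5, 7 and 6 were so in BLKS HFD mice and 4, 4, 5 and 7 in BL6 HFD mice. The balance thus rests in part on values at background, which have no order. The T-cell minus B-cell mean was -0.10, -0.19, -1.18 and -0.65 in BLKS HFD mice, against 0.72, 0.74, 1.08 and -0.23 in BL6 HFD mice, a difference of -1.11 with a pooled SD of 0.53. It stayed between -1.38 and -0.89 with each mouse left out and was -1.16 without the arrays that stood apart, but -0.50 after normexp correction with quantile normalization. On chow the difference was -0.39, smaller than the spread between mice, and it was from -0.95 to -0.08 with each mouse left out and -0.92 without the arrays that stood apart. On HFD+Pio it was -0.16, also smaller than that spread, from -0.40 to 0.01 with each mouse left out and -0.41 without those arrays.

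The responses of the strains were set against each other through the interaction. For HFD against chow, 0 of 35 members differed between strains (1 at an unadjusted p under 0.05), as did 0 of all genes (1947 at an unadjusted p under 0.05). Cd3e had the smallest p, with a difference of -0.51 ± 0.17 (SE, limma adjusted p = 0.39). For HFD+Pio against HFD, 0 of 35 differed (0 at an unadjusted p under 0.05), as against 0.00871% of all genes. Cd22 had the smallest p, with a difference of -0.997 (limma adjusted p = 0.77).

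Genes outside the module went with it over the 24 arrays. The 8 named genes whose deviations from the group means were closest to those of the T-cell mean were Plek, Gmfg, Lsp1, Snx20, Cytip, Lcp1, Gpsm3 and Cst7 (r from 0.98 to 0.99), and 7 of these were well above background on at least 23 arrays. Those closest to the B-cell mean were Fcrla, Btla, Faim3, Acap1, Fcrl1, Bank1, Tnfrsf13c and H2-DMb2 (r from 0.98 to 0.99). Fcrla, Btla, Fcrl1, Bank1 and H2-DMb2 were well above background on 7 arrays each, Tnfrsf13c on 9, Acap1 on 17 and Faim3 on 24. For those seen on 7 or 9 arrays, r rests on a few high arrays set against values at background. Tnfrsf13c is the receptor for the B-cell survival factor BAFF, and Bank1 is a B-cell scaffold protein. Of a list of 25 other T-cell genes, 17 were tested and 0 passed in any diet or drug comparison. In BLKS against BL6, 0 were higher and 1, 2 and 2 were lower on chow, HFD and HFD+Pio. Of 21 other B-cell genes 17 were tested, with 0 passing in the diet and drug comparisons and 1 higher and 0 lower in BLKS on each diet. Over all genes, 20.6%, 23.2% and 23.0% were higher in BLKS on chow, HFD and HFD+Pio, and 20.9%, 26.7% and 22.8% were lower. The counts for both lists are given as a description.

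Markers of other cell types were measured beside the module. Of 10 genes of lymphoid stroma and high endothelial venules 7 had a probe and 6 passed the filter. Taken as deviations from the group means, the mean of these 6 genes correlated with the T-cell mean at 0.89 and with the B-cell mean at 0.92. The correlations that follow were taken in the same way, so differences between groups do not enter them. The same values were 0.87 and 0.78 for 12 macrophage genes, 0.94 and 0.89 for 5 dendritic-cell genes, and 0.95 and 0.93 for 4 plasma-cell genes. The 14 acinar genes gave 0.07, the 3 neutrophil genes 0.03, the 5 red-cell genes 0.02, the 5 endothelial genes -0.29, the 5 duct genes -0.53 and the 12 islet genes -0.70 with the T-cell mean. Cxcl13, a chemokine of B-cell follicles, read 5.32 on BLKS HFD mouse 3, 3.86 on BLKS HFD+Pio mouse 1, 3.71 on BLKS chow mouse 2, 3.09 on BL6 HFD+Pio mouse 3, 1.68 on BL6 HFD mouse 4 and 1.21 on BL6 chow mouse 3. BLKS chow mouse 4, which also stood apart, read -4.74. Among the other 5 measured genes of that list, Glycam1 (0.03), Ccl19 (0.75) and Fcgr2b (0.45) were highest on BL6 HFD+Pio mouse 3. Which cells the listed genes were read from was not tested. Madcam1, an adhesion molecule of venules, was highest on BLKS HFD mouse 3 (2.79) and read -0.55 on BL6 HFD+Pio mouse 3. Clec4g was highest on BLKS chow mouse 2 (-1.06) and read -4.86 on BL6 HFD+Pio mouse 3. The mean of these 6 listed genes ranged from -1.37 to 1.64 in BLKS HFD+Pio, -1.40 to 3.34 in BLKS HFD and -1.41 to 2.52 in BLKS chow mice. In BL6 mice it ranged from -0.48 to 2.60 with HFD+Pio, -0.93 to 1.79 with HFD and -0.81 to 1.13 with chow. Its part in the module's values was not tested.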

How the data were processed

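Islet RNA of 24 mice was read on single-colour Agilent arrays. Per the file headers, Feature Extraction 10.7.3.1 made the deposited processed intensity of each spot, which is background-subtracted. The deposited table of values held a ratio, found from the values to be the processed intensity over the array's median (column median 1), and 0 of its columns were unmapped. Outlier spots were left out, spots of a probe averaged, and log2 intensities were centred on each array's 75th percentile. Probes well above background on at least 4 arrays were kept, with the brightest probe per gene name. One limma model over the 6 groups gave 9 contrasts, adjusted by Benjamini-Hochberg over 22968 genes at 0.05. It was tested on simulated data. p-values measure the spread between mice. Members and lists were chosen with earlier results of these data known. Genes were named where they passed, or had the smallest p of a contrast. Genes outside that rule were chosen after their values were seen. Alternatives were normexp (offset 50, from the deposited mean and background intensity) with quantile normalization, quantile normalization, other filters, the mean of probes, the deposited ratios, slide or mouse number as a block, a fit of the compared groups alone, and arrays left out. Versions were R 4.3.3, limma 3.58.1, the package data.table (1.17.8), pandas 2.3.3, numpy 2.4.6, scipy 1.17.1 and matplotlib 3.10.9.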

Additional observations from a re-analysis of the deposited data

Results flagged for a closer look

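Of 84 groups of 4 mice tested for a value far from the others (14 measures in 6 groups), 13 held one, and chance gives about 1 in 20. The measures move together and include the values that defined the arrays that stood apart, on which all 13 lay, so the count is a description. The T-cell mean was far above the others on BLKS HFD mouse 3 (2.65) and BL6 HFD mouse 4 (2.85). The B-cell mean was so on BLKS HFD+Pio mouse 1 (2.15), BL6 HFD mouse 4 (3.08) and BL6 chow mouse 3 (1.85). Among genes, Cd79a (2.31) and Cd22 (0.24) were far above the rest of their group on BLKS HFD mouse 3. Ms4a1 was so on BLKS HFD+Pio mouse 1 (1.30) and BL6 HFD mouse 4 (3.09), and Lta on the same arrays (-1.36 and -2.26). Lck was so on BL6 HFD mouse 4 (2.06), and Cd8a on BLKS HFD+Pio mouse 1 (-4.82), but none of the 4 arrays of that group read this Cd8a probe well above background, so its values there have no order.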

How the results depend on the processing

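The count of members called stayed 0 in the diet, drug and interaction comparisons under every alternative run. In BLKS against BL6 on chow (2 called), it was 1 with no filter, 1 with only probes well above background on 24 arrays, 1 with the value table, 5 with only the groups compared and 8 without the arrays that stood apart, and from 1 to 2 with each mouse left out. On HFD (2 called) it was 1 with only probes above background on 24 arrays and 17 without the arrays that stood apart, and from 2 to 4 with each mouse left out. On HFD+Pio (3 called) it was 1 with only the groups compared and 12 without the arrays that stood apart, and from 1 to 4 with each mouse left out. The stricter filter left 15 members and dropped Lta. Shares over all genes are given above for the main fit and for the fit without the arrays that stood apart. They are not given for the other settings, so the counts of members there are a description only. The T-cell minus B-cell mean on HFD was -0.50 with normexp and quantile normalization, against -1.11, and from -1.38 to -0.89 with each mouse left out. The cause of these shifts was not tested beyond the samples and genes each setting leaves. No called gene changed direction. The differences in T-cell and B-cell mean, which have no test, changed sign in places, for example the T-cell mean of BL6 HFD against chow (0.68) at -0.21 without BL6 HFD mouse 4, and of BLKS HFD+Pio against HFD (-0.19) at 0.74 without BLKS HFD mouse 3. Lta on HFD+Pio passed with quantile normalization (limma adjusted p = 0.0400) and with the value table (0.0418). With mouse number as a replicate block, 1 member passed on chow, 2 on HFD and 3 on HFD+Pio. The labels name no pairing of the mice by number. Same-numbered mice of compared groups correlated from -0.64 to 0.48 in their deviations from the group means. Differently numbered mice were not set beside them, so this range does not settle whether the numbers carry a pairing. Of the 35 members, 15 were well above background on all 24 arrays, and low values of the others lie at background and have no order.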
